A study of Mus musculus with 22 samples.

Results

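Whole brains of 10 adult male mice of the inbred strain C57BL/6J (B6) were examined for how much expression differs between mice with nearly the same genome. The 10 arrays were those whose title ends in the B6 whole brain label, out of 22 arrays in the series. The mice were naive, so no group was treated, and the labels give their age only as adult. Per the labels, each brain was frozen whole and its total RNA was put on 1 Affymetrix Mouse Exon 1.0 ST array, where small groups of probes (probesets) target single exons. Each mouse had 1 array, so a difference between mice and a difference between arrays cannot be told apart. Values are log2 RMA values as the authors deposited them, and a gene's value is the median of its probesets. Mice are numbered as in the titles (1, 2, 3, 4, 5, 6, 8, 9, 11 and 12).

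Mice of an inbred strain are alike at almost all loci, and what still differs among them includes life history, physiological state at death, how the brain was dissected and how it was measured. A whole brain holds neurons of many kinds, glia, vessels, meninges and blood, and pieces of attached tissue such as the pituitary or the olfactory nerve may or may not come with it. Some genes of neurons, the immediate early genes, are transcribed within minutes of activity, and their level at death reflects what the animal had just experienced. In bulk RNA, fewer cells of a type and less RNA per cell cannot be told apart.

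The 16016 genes measured had at least 3 probesets above the level filter (a mean log2 value of 1.44), with a median of 12 probesets per gene. Across genes, the 45 pairs of arrays correlated with r from 0.961 to 0.985 (median 0.977); genes are not independent replicates. Array medians, taken over all probesets, ranged from 1.41 to 1.47. A principal component analysis of the 10 arrays put 29.8% of the variance on its first axis, and the score on it moved against the array median with r = -0.85 (Spearman rho = -0.90, n = 10, two-sided permutation p = 0.00250, adjusted over 3 relations 0.00375, and r = -0.77 without the 2 mice farthest from the median). The mice with the highest component scores included mouse 5 (33.7) and mouse 6 (13.1), the 2 B6 arrays whose file name carries the letter B, with mouse 4 at 16.1 and mouse 2 at 14.1. The sources used here do not say what this letter stands for, and it is called the file letter below.

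Most genes differed little among the 10 brains. The standard deviation (SD) of a gene over the mice had a median of 0.244 on the log2 scale, with 0.121 at the 5th and 0.460 at the 95th percentile. An SD of at least 0.5 was reached by 497 genes (3.10% of 16016), and an SD of at least 1 by 6. The first count depends on how a gene is summarised: it was 65 with the mean over probesets in place of the median, and 229 with the array median regressed out. The spread was larger for dim genes: the median SD was 0.292 for gene means from 2 to 4, 0.232 from 4 to 6, 0.186 from 6 to 8 and 0.170 above 8. It was also larger for genes with few probesets, since 333 of the 497 genes (67.0%) had 3 to 5 probesets, against 19.7% of all genes measured. For this reason the SD of most of the more variable genes named is given with the probeset agreement, the intraclass correlation of a gene's probesets over the arrays, which is near 1 where all probesets move alike and near 0 where they do not. The agreement was 0.02 for Snap25 and for Drd2, and it had a median of 0.11 over all genes, and 43 genes (0.268%) had both an SD and an agreement of at least 0.5.

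**Figure D1:**
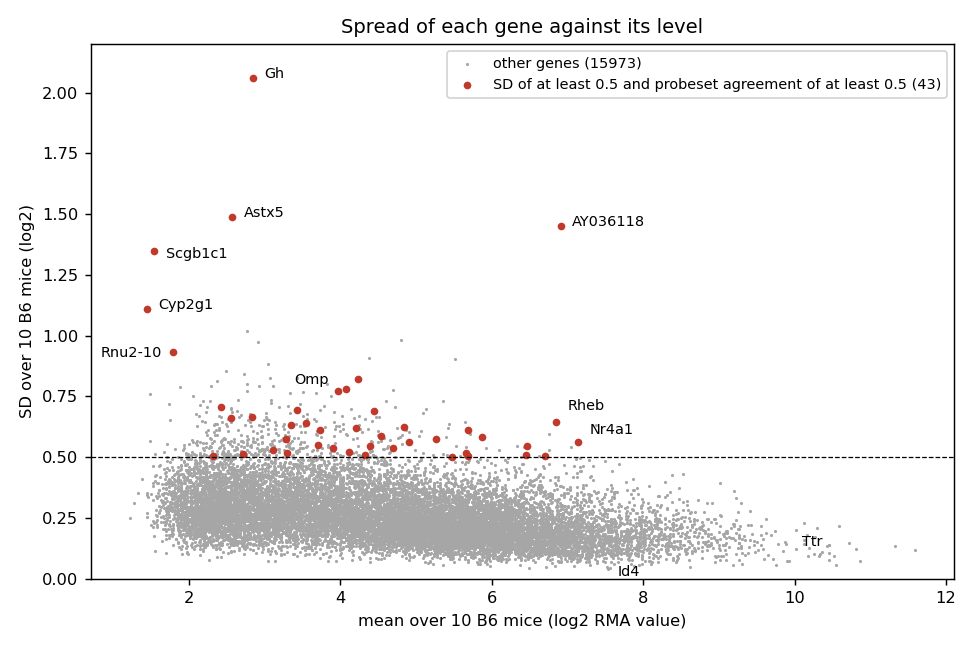
Each point is 1 of 16016 genes, with its mean over the 10 B6 mice on the horizontal axis and its SD over the same mice on the vertical axis (both log2). The dashed line marks an SD of 0.5, and red points are the 43 genes that also have a probeset agreement of at least 0.5. Gh stands highest at 2.06, and no gene with a mean above 8 reaches the dashed line.

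Pooled over lists of cell types, tissues and pathways, listed genes did not reach a large spread less often than genes at large. Of 370 genes on 32 such lists, 314 were measured, and 16 of them (5.10%) had an SD of at least 0.5, beside 3.10% of all genes. Those 16 fell on 8 lists, and 24 lists had none. The immediate early list held 6 of them, the olfactory list 3 and the pituitary list 2, and the rest were single genes of their lists. The pooled share thus rests mostly on these 3 lists and does not describe the others. The median SD of a list was above that of all genes (0.244) in 19 of the 32. Levels are not ranked between genes here, because probes of different genes bind with different strength.

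Among neurons, Snap25, a protein of synaptic vesicle fusion, had a log2 value of 10.12 ± 0.23 (SD, n = 10), with a lowest value of 9.66 in mouse 6. Syt1, the calcium sensor of transmitter release, had 9.58 ± 0.12. Of the neurofilament genes, Nefl had 7.62 ± 0.34 and Nefm 6.68 ± 0.34. No measured member of the pan-neuronal list reached an SD of 0.5, beside 3.10% of all genes, and a list this short can have none at that share. Camk2a, the kinase abundant in forebrain excitatory neurons, was among the steadier neuronal genes at 9.60 ± 0.08, and Slc17a7, which loads glutamate into vesicles, had 9.09 ± 0.20. Neurod6, a transcription factor of cortical pyramidal neurons, ranged from 4.45 to 5.89 (SD 0.503, 4 probesets, agreement 0.44) and was the 1 glutamatergic gene of 8 with an SD of at least 0.5.

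Of the genes of inhibitory neurons, Gad1, which makes GABA, had 8.23 ± 0.19, and its lowest value, 7.74 in mouse 11, stood apart from the other 9 mice (8.16 to 8.41). Cck, a neuropeptide placed on the GABAergic list but not taken here as particular to these neurons, had 9.25 ± 0.12. Pvalb, the calcium-binding protein of fast-spiking cells, had 7.28 ± 0.32. In striatal neurons, Ppp1r1b, the dopamine-regulated phosphatase inhibitor DARPP-32, had 7.63 ± 0.17, Penk, the enkephalin precursor, 8.06 ± 0.29, and the dopamine receptor Drd2 5.91 ± 0.11. Tac1, the substance P precursor, spread more, from 6.10 to 7.35 (SD 0.431, agreement 0.54). In the cerebellum, Car8, abundant in Purkinje cells, had 9.02 ± 0.12, and Cbln1, a synapse organizer secreted by granule cells, had 7.21 ± 0.38. Th, the enzyme that starts dopamine synthesis, had 6.03 ± 0.28, and Tph2, its counterpart for serotonin, 3.69 ± 0.43. Of the hypothalamic peptides, Oxt (oxytocin) had 4.20 ± 0.40 and Trh 4.35 ± 0.49. The median SD was 0.194 for the GABAergic and 0.211 for the cerebellar list, below the 0.244 of all genes, and 0.288 for the striatal, 0.287 for the monoaminergic and 0.321 for the hypothalamic list, above it.

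Glial and vascular lists lay on both sides of the median of all genes. Aldoc, a glycolytic enzyme of astrocytes, had 10.55 ± 0.06 and Glul, the glutamine synthetase of the same cells, 10.18 ± 0.09. The median SD of the 11 astrocyte genes was 0.183 and that of the myelin list 0.193, against 0.244 for all genes, while it was 0.302 for microglia, 0.278 for oligodendrocyte precursors, 0.268 for pericytes and smooth muscle and 0.261 for ependyma and choroid plexus. In oligodendrocytes, Cnp had 9.06 ± 0.14 and Mbp 8.41 ± 0.15, and Opalin, a membrane protein of myelinating cells, ranged from 3.50 to 4.96 (SD 0.506, agreement 0.27). Of microglial genes, Csf1r, the receptor these cells need to survive, had 6.21 ± 0.11, and Trem2, a lipid-sensing receptor, 3.69 ± 0.42. Slc2a1, the glucose transporter of brain endothelium, had 8.17 ± 0.24. Kcnj8, a potassium channel of pericytes, was the 1 mural gene of 8 with an SD of at least 0.5 (0.541, range 2.43 to 4.21, agreement 0.10). Ttr, the thyroid hormone carrier made by the choroid plexus, had 10.87 ± 0.07 and ranged from 10.77 to 11.00, and its SD was 0.19 with the mean over probesets.

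Blood and sex-linked genes gave a check on the tissue and the labels. Hbb-b1, a haemoglobin chain of red blood cells, had 10.16 ± 0.18 and was lowest in mouse 6 at 9.79. Alas2, the haem synthesis enzyme of the red cell lineage, was 3.45 in the same mouse and 4.22 to 4.89 in the other 9. Epb42, also on the red cell list, was lowest in mouse 6 too (1.57), while Slc4a1 was at 2.37 there, beside a mean of 2.31. Hbb-b1 had 3 probesets, and its SD was 0.30 with the mean over probesets and 0.39 with no filter on dim probesets. Of the Y-linked genes, Kdm5d had 4.84 ± 0.11 and Eif2s3y 6.12 ± 0.23. Uty, with 4 probesets, spread more (3.04 ± 0.49), from 1.93 in mouse 11 to 3.58 in mouse 4. Xist, the RNA of the inactive X chromosome, had too few probesets above the filter for a gene value. The Y-linked Ddx3y had no gene value either, so a missing value here cannot tell male from female.

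**Figure D2:**
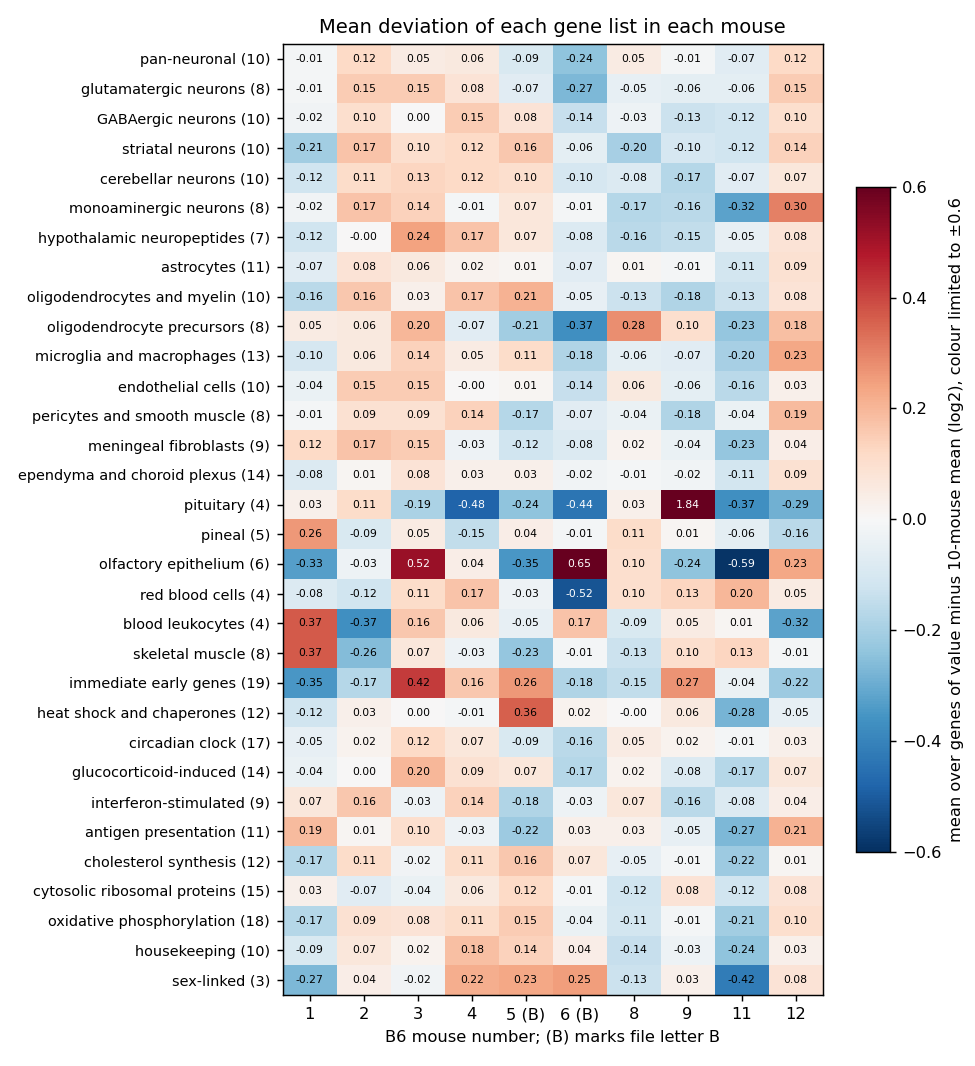
Each cell gives, for 1 gene list and 1 B6 mouse, the mean over the list's measured genes of the value minus that gene's 10-mouse mean (log2), with the number of genes in brackets. The cells outside ±0.5 are the pituitary list in mouse 9 (1.84), the olfactory list in mice 3 (0.52), 6 (0.65) and 11 (-0.59), and the red blood cell list in mouse 6 (-0.52). With 4 measured genes, the pituitary mean is carried mostly by Gh.

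Several of the genes with the largest spread are textbook genes of tissues that adjoin the brain. Gh, growth hormone of the anterior pituitary, had the largest SD of the 16016 genes, 2.06 (agreement 0.69). It was 8.45 in mouse 9 and lay between 1.50 and 3.13 in the other 9 mice (2.32, 3.13, 1.50, 1.54, 2.75, 2.33, 2.95, 1.58 and 1.91 in mice 1, 2, 3, 4, 5, 6, 8, 11 and 12). Mouse 9 was thus 5.32 above the next mouse, or 39.9-fold on the linear scale. Pomc, the hormone precursor made in the pituitary and in the arcuate nucleus, was 3.58 in the same mouse and 1.56 to 2.41 in the others.

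Other pituitary hormones were too dim for the filter, and Prl, Cga, Tshb and Fshb are named outside the naming rule, after their values were seen. Without the filter, Prl (prolactin, 8 probesets) was 4.19 in mouse 9 and 0.11 to 0.87 in the other 9 mice. Cga, the shared subunit of the glycoprotein hormones, was 1.84 in mouse 9 and at most 0.98 elsewhere, while Tshb (0.34 in mouse 9) and Fshb (0.69) lay within the range of the other mice. Lhb (3.26 ± 0.36) and Gpx3 (3.98 ± 0.30) had no mouse apart. Without mouse 9, the SD of Gh was 0.629 and that of Pomc 0.237, so that 1 of 4 measured pituitary genes, in place of 2, had an SD of at least 0.5. The part of attached pituitary tissue in these values was not tested.

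Textbook genes of the olfactory mucosa were high in another animal. Scgb1c1, a secretoglobin of the nasal mucosa, was 5.31 in mouse 6 and 0.77 to 1.61 in the other 9 mice, which is 3.70 above the next mouse (13.0-fold). Cyp2g1, a cytochrome P450 of the olfactory mucosa, was 4.40 in mouse 6, with mouse 3 next at 2.14 and the other 8 mice between 0.81 and 1.40. Stoml3, a stomatin-family protein of olfactory sensory neurons that was also named after its values were seen, was 4.19 in mouse 6, with mouse 3 again next at 2.86. Their probesets moved alike, with an agreement of 0.84, 0.87 and 0.54. These 3 genes formed a group of their own when the 43 agreeing variable genes were clustered, with r from 0.88 to 0.94 between them, but that likeness rests on mouse 6.

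Genes of olfactory sensory neurons whose axons enter the brain varied over more of the mice. Omp, the marker protein of mature olfactory neurons, was 5.47 in mouse 6, between 4.34 and 4.45 in mice 2, 3, 4 and 12, and between 2.94 and 3.66 in mice 1, 5, 8, 9 and 11 (SD 0.771, agreement 0.85). S100a5, a calcium-binding protein of the same neurons, was 5.50 in mouse 3 and 5.34 in mouse 6, and 2.92 in mouse 11 (SD 0.822, agreement 0.70). Cdhr1, a cadherin of the mitral and tufted cells of the olfactory bulb, named after its values were seen, ranged from 3.62 in mouse 11 to 5.10 in mouse 4 (SD 0.508, agreement 0.63), and mouse 6 was at 4.43. Adcy3 (5.63 ± 0.21) and Gng13 (5.05 ± 0.27), parts of the odorant signalling cascade that other neurons also express, had no mouse apart, and mouse 6 was the lowest for Adcy3 (5.25) and next to the lowest for Gng13 (4.72). In all, 3 of 6 measured genes of the olfactory list had an SD of at least 0.5, and without mouse 6 it was 2, Omp (0.600) and S100a5 (0.767).

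**Figure D3:**
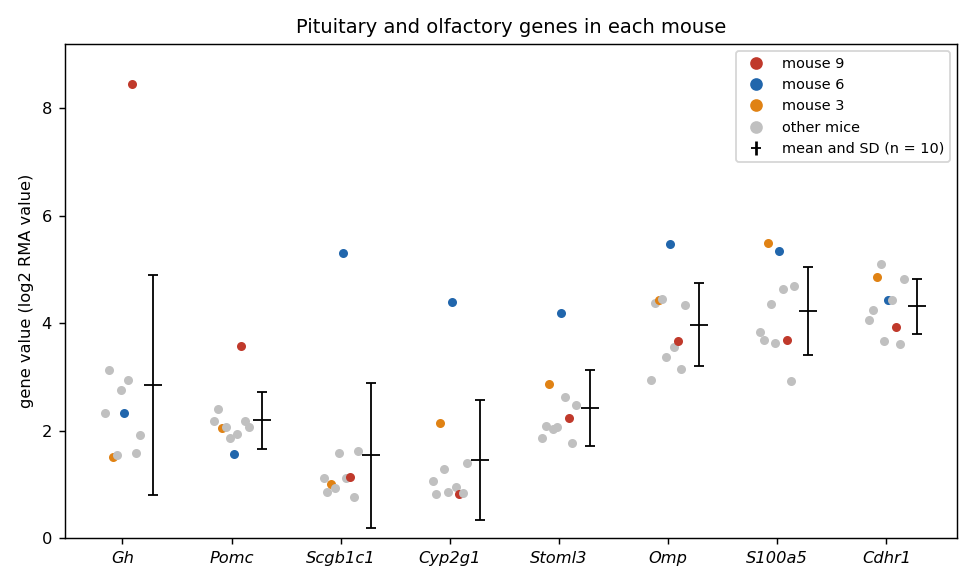
Points are the log2 gene values of single B6 mice, and black bars give the mean and SD over the 10 mice. Mouse 9 (red) stands above the others for Gh and Pomc, mouse 6 (blue) for Scgb1c1, Cyp2g1, Stoml3 and Omp, and mouse 3 (orange) is level with mouse 6 for S100a5.

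Among the other genes of large spread, few had probesets that agreed. Of the 30 genes with the largest SD, 23 had a mean below 4, 19 had only 3 probesets and 21 had an agreement below 0.5, so their ranking is uncertain. Astx5, a gene of 3 probesets, came after Gh in SD (1.49, agreement 0.84) and had no mouse apart. It ranged from 3.49 to 4.55 in mice 1, 2, 3 and 4, was 2.71 in mouse 5 and 2.51 in mouse 9, and lay between 0.57 and 1.73 in mice 6, 8, 11 and 12. With no filter on dim probesets the SD of Astx5 was 0.11, so its rank rests on the 3 probesets kept. AY036118, a transcript with 9 probesets, came next (1.45, agreement 0.85), being 3.40 in mouse 5 and 5.90 to 8.47 in the others. Rnu2-10, annotated as a U2 spliceosomal RNA, ranged from 0.41 in mouse 6 to 3.60 in mouse 4 (SD 0.933, agreement 0.82). Olfr370, an olfactory receptor gene, had an SD of 1.02 but an agreement of only 0.21.

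Other genes with agreeing probesets were high in several mice. Cldnd1, a claudin-domain membrane protein, had the highest agreement of the 15 agreeing genes named, 0.88, and an SD of 0.492. It was 7.77 in mouse 8, 7.86 in mouse 9, 7.50 in mouse 1 and 7.34 in mouse 6, and between 6.50 and 7.01 in the other mice, so that the highest brain was 2.57-fold above the lowest. Ndufa2, a subunit of respiratory complex I, was 5.11 to 5.24 in mice 1, 8 and 9 and 3.27 to 3.85 in the other 7 (SD 0.781, agreement 0.59). No mouse lay between these 2 sets of values.

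At the other end, the steadiest of the brighter genes included Id4, an inhibitor of bHLH transcription factors (SD 0.0413, 7.49 to 7.63), Dgkh, a diacylglycerol kinase (0.0424), and Ptprd, a receptor tyrosine phosphatase of synapses (0.0451). Lsamp, a cell adhesion molecule of limbic neurons, had 0.0523, and Copa, a coat protein of Golgi vesicles, 0.0537. With the mean over probesets the SD was 0.10 for Id4 and 0.09 for both Dgkh and Lsamp. Actb, often used for normalization, had 0.0819, while Hprt, another such gene, had 0.465 (agreement 0.48). Hprt ranged from 6.56 in mouse 11 to 7.97 in mouse 5. These mice had the lowest (-22.8) and the highest (33.7) score on the first principal component, and the part of the arrays in this spread was not tested.

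Single mice standing apart were not spread evenly over the animals. By the gap ratio (distance of the highest or lowest mouse to its neighbour over the whole range, past the Dixon critical value for 10 samples), 855 genes (5.34%) had 1 mouse apart, and that mouse was the lowest in 618 of them. Mouse 11 was apart in 231 genes, mouse 6 in 163, mouse 5 in 116 and mouse 9 in 112, together 72.7% of the 855. In mouse 11 the value was low in 214 of the 231 genes and high in 17. Its array had the lowest median gene value (4.52) and the highest median over all probesets (1.47). Of the 497 genes with an SD of at least 0.5, 44 (8.85%) had 1 mouse apart, and the rest varied over several mice.

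Whether genes moved together was asked of 63 pairs of textbook partners. The pairs were chosen with earlier results of these data known, so their p-values are not those of an independent test. Of the 50 pairs measured, 7 (14.0%) correlated over the 10 mice at an adjusted permutation p under 0.05, and 15 at an unadjusted p under 0.05. All 7 were positive and joined genes of 1 cell type or pathway, as did 46 of the 50 pairs measured. For comparison, the median r of all 128248120 gene pairs was 0.08, and 2.31% of them had an r of at least 0.76, the lowest value among the 7. Without the 2 arrays with file letter B, r of the 7 pairs was 0.71 to 0.97 over 8 mice, and only Fos and Nr4a1 were still called. Fewer mice also make a call harder, and the part of these arrays in the lost calls was not tested.

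Col1a1 and Col1a2, the 2 chains of type I collagen made by meningeal and vascular fibroblasts, had r = 0.91 (rho = 0.90, n = 10, two-sided permutation p = 4.70e-04, adjusted p = 0.0117, r = 0.90 without the 2 farthest mice). Col1a1 was 4.82 to 4.89 in mice 1, 8 and 9 and 4.10 to 4.48 in the other 7. Col1a2 was also highest in mice 1 and 9, at 5.03 and 5.02, followed by mouse 8 at 4.81. The 2 genes have 54 and 55 probesets, so their levels rest on many probes, with an agreement of 0.27 and 0.22. Their r with the first principal component was -0.59 and -0.66. The other meningeal pair, Dcn and Col3a1, had r = 0.01 (adjusted permutation p = 0.986).

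Sqle and Idi1, enzymes of the cholesterol pathway, had r = 0.88 (rho = 0.87, two-sided permutation p = 0.00106, adjusted p = 0.0133, n = 10). Sqle ranged from 5.59 in mouse 1 to 6.27 in mouse 6 and Idi1 from 5.50 in mouse 1 to 6.50 in mouse 4. Both followed the first principal component (r = 0.89 and 0.88), and after the array median was regressed out their r of 0.81 was no longer called. The cholesterol list as a whole did not move as 1: the median r of its 66 gene pairs was 0.03.

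Drd1, the dopamine receptor of direct-pathway striatal neurons, and Tac1 of the same neurons had r = 0.87 (rho = 0.93, two-sided permutation p = 0.00133, adjusted p = 0.0133, n = 10). Both were high in mice 5 and 6 (Drd1 5.37 and 5.46, Tac1 7.20 and 7.35). These genes too followed the first component, with r of 0.81 and 0.79, and with the mean over probesets in place of the median their r was 0.38. Drd2 and Gabra6, a receptor pair from striatum and cerebellum chosen as partners of different cell types, had r = 0.76 (two-sided permutation p = 0.00907, adjusted p = 0.0530), which missed the threshold.

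Hsph1 and Dnajb1, a heat shock protein and the co-chaperone that works with it, had r = 0.82 (rho = 0.75, two-sided permutation p = 0.00113, adjusted p = 0.0133, n = 10). Hsph1 was 8.43 in mouse 5, 7.23 in mouse 11 and 7.65 to 7.95 in the other 8 mice, and r was 0.64 without the 2 farthest mice. With the first principal component Hsph1 had r = 0.78 and Dnajb1 0.57, and with the array median -0.77 and -0.60. The probeset agreement was 0.33 for Hsph1 and 0.14 for Dnajb1. Csf1r and Cx3cr1, the latter the fractalkine receptor of microglia, had r = 0.76 (adjusted permutation p = 0.0252, n = 10). Here mouse 11 held Cx3cr1 at 4.45 against 5.12 to 5.82 in the others, r was 0.49 without the 2 farthest mice, and it was 0.12 once the arrays were centred on their median gene value.

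Other partners did not correlate detectably with 10 mice. Gh and Pomc had r = 0.87 (rho = 0.24, permutation p = 0.0488, adjusted p = 0.163), and r was 0.03 without the 2 farthest mice, so the relation rests on mouse 9. The clock genes Dbp and Per2 had r = 0.17 (adjusted permutation p = 0.757) and Dbp and Nr1d1 r = 0.57 (0.240). The myelin genes Mag and Mog had r = 0.35 (0.575), the glucocorticoid-induced Fkbp5 and Sgk1 0.24 (0.652), and Ttr and Kl of the choroid plexus 0.05 (0.948).

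Some pairs came close to the threshold. Car8 and Calb1, both abundant in Purkinje cells, had r = 0.75 (rho = 0.82, permutation p = 0.0106, adjusted p = 0.0530, and 0.74 without the 2 farthest mice). Tph2 and Slc6a4, the synthesis enzyme and the transporter of serotonin, had r = 0.74 (adjusted permutation p = 0.0752). Hbb-b1 and Alas2 of red blood cells had r = 0.78 (adjusted permutation p = 0.0530), which was 0.48 without mouse 6, the mouse lowest for both. Slc1a2 and Slc1a3, the glutamate transporters of astrocytes, had the lowest r of the 50 pairs, -0.62 (adjusted permutation p = 0.170).

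The genes most alike in pattern were also taken for other chosen genes, again with no test. Drd2 was most like Smim15 (r = 0.90 over the 10 mice) and Ccnh (0.87), but with the mean over probesets these were 0.18 and -0.02. Dbp, an output gene of the clock, was most like Kcnk12 (0.89), which was 0.19 with the mean over probesets, and Chrne (0.86, then 0.66). For Ttr the highest r among 921 genes was 0.65, with Pisd-ps3, and it was -0.19 with the mean over probesets. Hbb-b1 had Alas2 among its 5 most alike genes. The genes most like Gh after Pomc were Bcl2l1 and Akap12 (both 0.82), and without the 2 farthest mice these had 0.27 and 0.51. Cldn5, also chosen for this, had too few probesets above the filter.

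**Figure D4:**
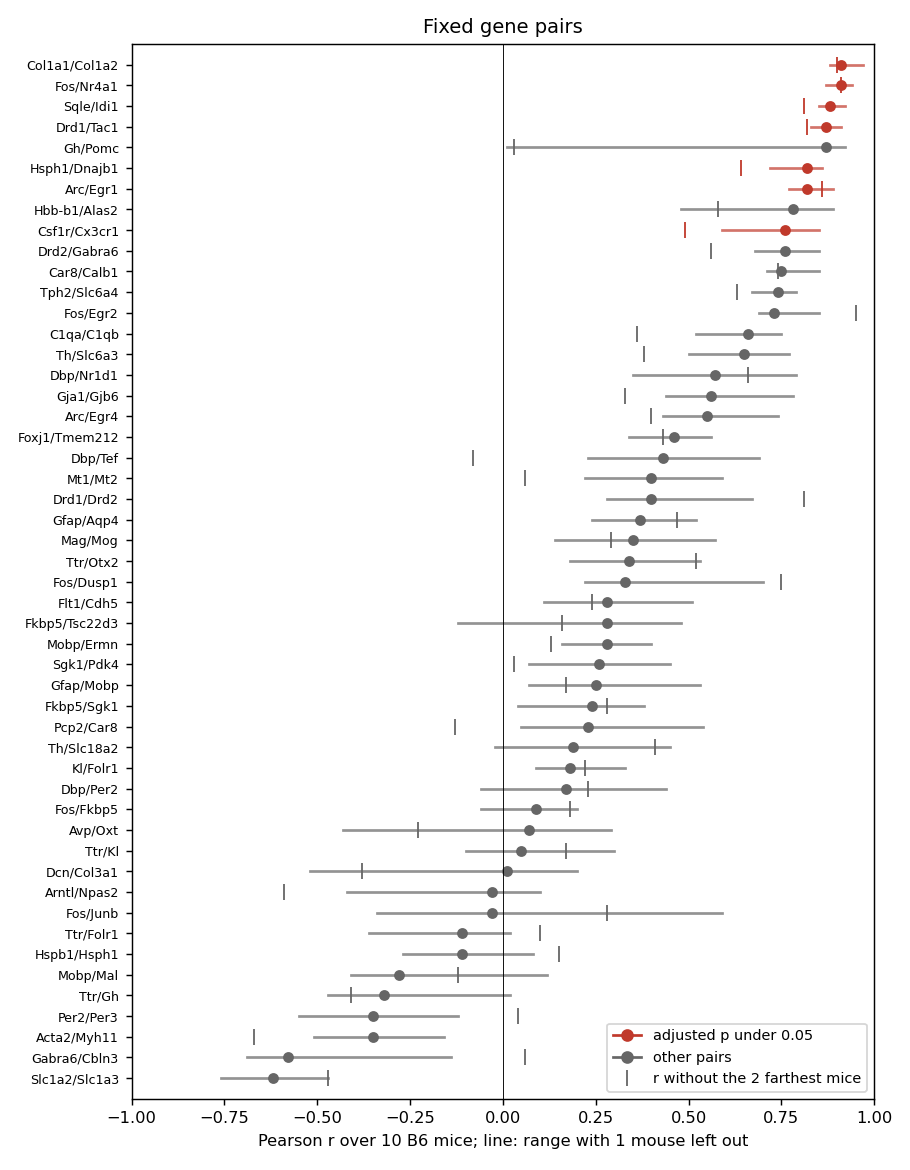
Each row is 1 of the 50 measured gene pairs, with Pearson's r over the 10 B6 mice (point), the range of r when each mouse is left out in turn (line) and r without the 2 mice farthest from the median of the first gene (tick). The 7 red pairs have an adjusted permutation p under 0.05, and the line of Gh and Pomc runs from 0.01 to 0.92.

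Immediate early genes were mostly positively correlated with each other. Among 171 pairs of 19 such genes, 152 (88.9%) had a positive r, beside 56.9% of all gene pairs, and the median r was 0.41, beside 0.08. The median was 0.42 with arrays centred, 0.43 with the array median regressed out and 0.54 without the file letter B arrays. Other lists had a median r as high: it was 0.48 for the pan-neuronal list, 0.51 for oligodendrocyte precursors and 0.45 for the myelin list. With the array median regressed out these were 0.49, 0.57 and 0.11, and without the file letter B arrays 0.09, 0.38 and 0.47. Of the 19 genes, 6 had an SD of at least 0.5, beside 3.10% of all genes: Fos, Junb, Egr2, Nr4a1, Ier2 and Klf4. Without the file letter B arrays it was 4 of 19, with Fos at 0.474 and Junb at 0.382.

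Fos, the AP-1 component used as the standard marker of recent neuronal activity, was 5.43 in mouse 6, 5.23 in mouse 5, 5.22 in mouse 9 and 5.07 in mouse 3. It was 4.81 in mouse 4, 4.65 in mouse 11, 4.41 in mouse 8, 4.25 in mouse 2, 4.10 in mouse 1 and 3.86 in mouse 12. The highest brain was thus 2.97-fold above the lowest, with values spread evenly between (SD 0.536, agreement 0.38). Nr4a1, an activity-induced nuclear receptor, was 7.42 to 7.80 in mice 3, 4, 5, 6 and 9, 7.27 in mouse 11, 6.97 in mouse 8, 6.69 in mouse 2 and 6.31 and 6.22 in mice 12 and 1 (SD 0.564, agreement 0.62). Their r was 0.91 (rho = 0.79, n = 10, two-sided permutation p = 3.40e-04, adjusted p = 0.0117), and it was 0.91 without the 2 farthest mice. Fos had r = 0.28 with the first principal component and 0.69 with the second, and Nr4a1 0.17 and 0.41.

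Arc, which acts on synaptic strength, and Egr1, a zinc finger factor, had r = 0.82 (rho = 0.84, two-sided permutation p = 0.00275, adjusted p = 0.0229, n = 10). Arc was highest in mice 9, 3 and 5 (6.59, 6.54 and 6.44) and Egr1 in mice 5, 3 and 9 (6.33, 6.18 and 5.84). In mouse 6, which had the highest Fos, Arc was 5.80 and Egr1 5.60. Fos and Junb, which codes a dimerization partner of Fos, did not correlate detectably (r = -0.03, adjusted permutation p = 0.953), and Junb was lowest in mouse 6 at 3.85. Fos and Egr2 had r = 0.73 (adjusted permutation p = 0.0851), and 0.95 without the 2 farthest mice.

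**Figure D5:**
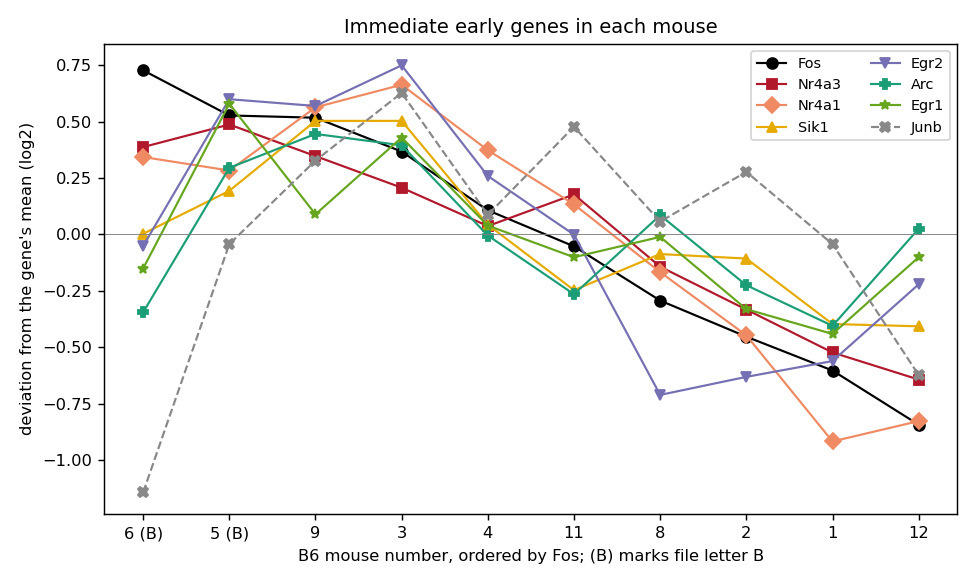
Lines give the deviation of 8 immediate early and related genes from their 10-mouse means (log2) in each B6 mouse, with mice ordered by Fos. Nr4a3 and Nr4a1 follow Fos from mouse to mouse, and mice 1, 2 and 12 lie below the mean for Fos, Nr4a1, Nr4a3, Sik1, Egr2 and Egr1. Junb (dashed) departs from Fos most in mouse 6. It lies above its mean in mice 2, 8 and 11, where Fos lies below.

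Of 920 genes with an SD of at least 0.3 and an agreement of at least 0.3, the 5 whose pattern over the 10 mice was most like that of Fos were Nr4a3 (r = 0.96), Nr4a1 (0.91), Akr1c14 (0.82), Sik1 (0.78) and Hnrnpd (0.73). Nr4a3 is a nuclear receptor of the same family as Nr4a1, and Sik1 a kinase induced through cyclic AMP. These are descriptions with no test, over mice that share 1 set of arrays. Without the file letter B arrays r was 0.96 for Nr4a3, 0.97 for Nr4a1 and 0.91 for Sik1.

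Activity and cyclic AMP act on many such genes through CREB, a factor that binds the sequence TGACG and longer forms of it. The 250 bases before the transcription start are shown for the 3 of these genes that moved most closely together and had an entry, from RefSeq on mouse build GRCm38.p6, all on the plus strand and read 5′ to 3′. Capitals mark TGACG or its reverse complement CGTCA. The stretches are chr12:85473640-85473889 for Fos, chr15:101266596-101266845 for Nr4a1 and chr4:48045055-48045304 for Nr4a3.
Fos: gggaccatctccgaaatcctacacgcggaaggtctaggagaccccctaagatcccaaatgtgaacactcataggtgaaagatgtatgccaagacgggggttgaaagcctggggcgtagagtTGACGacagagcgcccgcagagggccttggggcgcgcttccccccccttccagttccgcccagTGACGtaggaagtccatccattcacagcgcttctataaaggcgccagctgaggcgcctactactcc
Nr4a1: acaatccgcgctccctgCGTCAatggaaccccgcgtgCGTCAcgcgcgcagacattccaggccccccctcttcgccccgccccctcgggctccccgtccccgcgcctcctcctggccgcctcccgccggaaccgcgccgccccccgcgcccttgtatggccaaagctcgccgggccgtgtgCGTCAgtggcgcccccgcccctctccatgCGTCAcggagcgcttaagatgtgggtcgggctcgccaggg
Nr4a3: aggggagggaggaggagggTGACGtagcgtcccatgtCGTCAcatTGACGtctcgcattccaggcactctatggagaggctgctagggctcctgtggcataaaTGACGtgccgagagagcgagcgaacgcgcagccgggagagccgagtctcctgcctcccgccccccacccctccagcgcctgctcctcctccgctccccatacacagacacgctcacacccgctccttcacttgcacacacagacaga
Fos held 2 copies, Nr4a1 4 and Nr4a3 4, counting both strands. The motif was present in 17.8% of 32851 RefSeq promoter stretches of the same length. Of the 19 immediate early genes, 15 had an entry and 13 of these held it in at least 1 of their entries, against 19.8% of all genes with an entry. A match is a description of letters and does not show binding.

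Average-linkage clustering of the 43 agreeing variable genes at r of at least 0.8 gave 1 group of at least 4 genes. Mcts1, Rheb, Pdcd10, Mrps18c, Rap1a, Lin52, Ramac and Sat1 had a median r of 0.91 with each other (0.72 to 0.97), each with an SD and an agreement of at least 0.5. Rheb, the small GTPase that switches on mTORC1, was 7.86 in mouse 6 and 7.72 in mouse 5, 6.57 to 7.25 in mice 2, 3, 4, 11 and 12, and 6.02 to 6.16 in mice 1, 8 and 9. Sat1, an enzyme of polyamine breakdown, was likewise highest in mice 5 (7.54) and 6 (7.39). The mean deviation of the group was 0.87 in mouse 5 and 0.75 in mouse 6, the file letter B arrays, and -0.70 in mouse 1. It followed the first principal component with r = 0.94 and the array median with r = -0.66, and the part of the arrays in this group was not tested.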

How the data were processed

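Whole-brain RNA of 10 B6 mice was measured, 1 array per mouse. The values are log2 RMA values deposited by the authors, with affy 1.12.2 under R 2.6.0 according to the submitters' processing notes. RMA subtracts background, brings all arrays to the same distribution and summarises each probeset's probes. The probeset definition and RMA options are not given in the sources used here. Per the labels, 24 arrays were hybridised and the 2 read by a different scanner were left out. Because of that shared distribution, a difference in total RNA is not visible.

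Of 1201338 probesets, 10932 were empty. Those with a mean over the series' arrays at or above the median (1.44) and 1 gene symbol were kept (309786 had 1 symbol, 6308 several, 874312 none). Of 22251 symbols, 17975 were current, 3981 were updated and 295 kept as given. A gene's value is the median of at least 3 kept probesets. Arrays have no read depth, and their number, 10, sets the precision.

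Python 3.11.15, numpy 2.4.6, pandas 2.3.3, scipy 1.17.1 and matplotlib 3.10.9 were used. Spread is the SD over mice, described without a test. Pairs were tested by two-sided permutation of Pearson's r and Spearman's rho (100000 resamples, Benjamini-Hochberg over the 50 pairs measured). The functions were tested on simulated data. Alternatives were the mean over probesets, other filters, centring, the array median regressed out, leaving out the file letter B arrays or 1 mouse, and other measures.

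Genes were named by rule: per list, up to 2 of highest mean and 2 of largest SD; the 30 of largest SD; the 15 of largest SD with an agreement of at least 0.7; groups of at least 4 genes; the 5 most like each of 8 genes; all pair genes; and the 10 steadiest of the brighter genes. The members, lists and pairs were chosen with earlier results of these data known. Updating of symbols was changed after a first look at the variable genes.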

Additional observations from a re-analysis of the deposited data

Results flagged for a closer look

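Of 254 named genes, 18 (7.09%) had 1 mouse so far from its neighbour that the gap passed Dixon's 95% critical value for 10 samples. Over all genes the share was 5.34%. Chance alone passes that value in about 1 of 20 groups. Many of the 254 were named for their spread over these same mice, so that rate is no yardstick for them. The mouse apart was number 9 for 5 genes, number 5 for 4, number 11 for 4, number 6 for 3 and number 1 for 2.

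Mouse 9 was high for Gh (8.45, others 1.50 to 3.13), Pomc (3.58, others 1.56 to 2.41), the apoptosis regulator Bcl2l1 (5.79, others 4.20 to 4.92) and Ywhaz (10.19, others 9.67 to 9.94), and low for Aldoc (10.41, others 10.52 to 10.60). Mouse 6 was high for Scgb1c1 (5.31, others 0.77 to 1.61) and Cyp2g1 (4.40, others 0.81 to 2.14) and low for Alas2 (3.45, others 4.22 to 4.89).

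Mouse 5 was low for AY036118 (3.40, others 5.90 to 8.47), Nanos3 (1.75, others 2.99 to 4.36) and the interferon-stimulated Oasl2 (2.59, others 3.25 to 3.90), and high for Sag, a gene of photoreceptors and the pineal (3.17, others 1.88 to 2.48). Mouse 11 was low for Cx3cr1 (4.45, others 5.12 to 5.82), Gad1 (7.74, others 8.16 to 8.41), Mbp (8.02, others 8.36 to 8.56) and the glucocorticoid-induced Tsc22d3 (5.70, others 5.95 to 6.20). These lows are not particular to the named genes: the array of mouse 11 had the lowest median gene value, and 214 of its 231 genes apart were low. Mouse 1 was high for the muscle gene Mb (3.38, others 1.36 to 2.41) and low for Rap1a (4.64, others 5.62 to 6.69).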

How the results depend on the processing

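The 497 genes with an SD of at least 0.5 became 65 with the mean over probesets, 113 of 12334 with a filter at the 75th percentile, 229 with the array median regressed out and 164 of 12854 with at least 6 probesets. Leaving out 1 mouse gave 422 to 578. Of the 30 most variable genes, 12 stayed among the 30 with the mean over probesets, 11 with no filter, 3 with the filter at the 75th percentile and 7 with at least 6 probesets. The 7 called pairs became 14 with no filter, 3 with the 75th percentile filter, 3 with the array median regressed out, 1 without the file letter B arrays, 4 of 39 with at least 6 probesets and 4 with Spearman's rho. No called pair changed sign under the alternatives run. Without mouse 9, chosen after seeing the data, 1 pituitary gene in place of 2 had an SD of at least 0.5. The cause of these changes was not tested, except that the 75th percentile filter and the probeset minimum tested fewer genes. No paired analysis was possible because only 1 group was described. Dim genes with few probesets limit what the SD can show.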

Other observations

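Gene lists not described above varied as follows. The circadian clock list had no gene of 17 with an SD of at least 0.5, beside 3.10% of all genes, and a list this short can have none at that share. Its median SD was 0.178, beside 0.244 for all genes. Nr1d1, a repressor of the clock, had 7.22 ± 0.28 (SD, n = 10) and was lowest in mouse 5 at 6.70. The 12 heat shock genes were highest in mouse 5 (mean deviation 0.36) and lowest in mouse 11 (-0.28). Hspd1, the mitochondrial chaperonin, ranged from 5.92 to 7.26 (agreement 0.57), while Hspa8, the constitutive chaperone, had 10.46 ± 0.08.

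The 9 interferon-stimulated genes measured had a median SD of 0.335, above the 0.244 of all genes, and none had an SD of at least 0.5, beside 3.10% of all genes. Stat2, their transcription factor, had 5.31 ± 0.10. The oligodendrocyte precursor list had a median r of 0.51 over its 28 gene pairs, and it was 0.57 with the array median regressed out and 0.38 without the file letter B arrays. It was lowest in mouse 6 (mean deviation -0.37) and highest in mouse 8 (0.28). Skeletal muscle genes, which are not brain genes, were highest in mouse 1 (mean deviation 0.37 over 8 genes). The largest part came from Mb, which was 3.38 in mouse 1, beside a 10-mouse mean of 2.04 (3 probesets, agreement 0.04). Of the other members, only Myh1 and Myh4 lay below their 10-mouse means in that mouse. The leukocyte list also had a mean deviation of 0.37 in mouse 1, over 4 genes. It was carried mostly by Cd52, which was 2.81 in mouse 1 and 0.22 in mouse 2 (3 probesets, agreement 0.36). Cd3e and Nkg7 lay below their 10-mouse means in mouse 1.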
